A study of Homo sapiens with 16 samples.

Results

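The genes TSC22D3, FKBP5, KLF9, PER1, SGK1, ZBTB16, CRISPLD2 and FBXO32, all well known to be induced by the activated glucocorticoid receptor, were followed through total RNA and 3 pools of polysome RNA from MM1.S myeloma cells. The members were chosen by name, with earlier results of these data known. All probes that the platform annotation assigns to them, older symbols included, were taken. These 8 genes are part of 20046 annotated genes and have 19 probes between them. Of the 19 probes, 11 were detected (detection p-value under 0.01) on at least 2 of 16 arrays and the other 8 on none. The 6 members with a detected probe were tested among 10163 genes, while no probe of ZBTB16 or CRISPLD2 was detected on any array.

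Glucocorticoids enter the cell and bind the glucocorticoid receptor NR3C1, which leaves its chaperone complex, moves to the nucleus and acts on genes that carry its response elements. Several of its targets feed back on hormone signalling: FKBP5 is a co-chaperone that lowers the receptor's affinity for hormone, and TSC22D3 (GILZ) holds back inflammatory transcription factors. In lymphoid and plasma cell malignancies glucocorticoids are used as drugs because they can drive these cells into apoptosis.

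MM1.S is an established human multiple myeloma line, a malignant relative of the antibody-secreting plasma cell, and all arrays came from this single line grown in log phase in FBS and RPMI. The cells received dexamethasone, a synthetic glucocorticoid, at 1 uM for 4 h or for 0 h. No group was kept for 4 h without the drug, so drug and elapsed time cannot be told apart. At each time total RNA and 3 polysome pools named A, B and C, RNA precipitated out of sucrose after fractionation, were hybridized to Illumina bead arrays, 2 arrays in each of 8 groups. The sources used here name the pools by letter without saying how heavy their polysomes were, and they do not say whether the 2 arrays of a group came from separate cultures, so p-values measure only the spread between these arrays, which may be technical. The array columns carry a prefix N or X of unstated meaning, used below to name the array within its group.

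Promoter sequence was available in the RefSeq set (GRCh38.p14) for 6 of the 8 members, TSC22D3, FKBP5, KLF9, PER1, SGK1 and CRISPLD2, and not for FBXO32 and ZBTB16. Each window spans 250 bases before to 50 after a start site and is written 5′ to 3′ on the gene's strand. Shown are both windows of FKBP5, the single windows of KLF9 and PER1 and, of the 4 windows of TSC22D3, the 1 with the most matches. TSC22D3, FKBP5 and KLF9 share with FBXO32 the separation of times described below, and PER1 does not. Capitals mark matches, on either strand, to the receptor hexamer AGAACA, the cyclic AMP element TGACGTCA, its core TGACG, which lies within it, and the E-box CACGTG.
TSC22D3 promoter, chrX:107717013-107717312, minus strand: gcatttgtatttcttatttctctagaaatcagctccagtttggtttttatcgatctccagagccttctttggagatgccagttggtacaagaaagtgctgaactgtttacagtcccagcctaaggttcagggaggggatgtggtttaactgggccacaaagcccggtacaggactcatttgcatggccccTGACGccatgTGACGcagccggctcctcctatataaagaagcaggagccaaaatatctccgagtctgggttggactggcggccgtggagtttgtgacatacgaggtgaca
FKBP5 promoter, chr6:35728534-35728833, minus strand: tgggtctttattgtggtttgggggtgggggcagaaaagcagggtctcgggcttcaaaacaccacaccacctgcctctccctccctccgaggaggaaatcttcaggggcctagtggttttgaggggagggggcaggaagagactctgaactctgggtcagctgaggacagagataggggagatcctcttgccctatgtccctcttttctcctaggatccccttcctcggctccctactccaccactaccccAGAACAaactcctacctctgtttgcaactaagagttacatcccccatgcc
FKBP5 promoter, chr6:35688866-35689165, minus strand: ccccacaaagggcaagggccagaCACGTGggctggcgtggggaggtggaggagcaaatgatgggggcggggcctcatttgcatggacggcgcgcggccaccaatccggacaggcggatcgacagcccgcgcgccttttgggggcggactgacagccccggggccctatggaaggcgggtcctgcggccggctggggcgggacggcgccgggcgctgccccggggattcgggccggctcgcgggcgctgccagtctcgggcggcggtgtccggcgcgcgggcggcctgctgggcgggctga
KLF9 promoter, chr9:70414608-70414907, minus strand: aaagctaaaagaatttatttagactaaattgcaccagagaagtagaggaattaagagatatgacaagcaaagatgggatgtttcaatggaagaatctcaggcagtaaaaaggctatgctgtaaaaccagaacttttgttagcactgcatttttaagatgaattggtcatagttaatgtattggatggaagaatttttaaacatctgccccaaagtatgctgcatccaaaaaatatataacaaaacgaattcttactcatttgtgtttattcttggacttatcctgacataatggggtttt
PER1 promoter, chr17:8152355-8152654, minus strand: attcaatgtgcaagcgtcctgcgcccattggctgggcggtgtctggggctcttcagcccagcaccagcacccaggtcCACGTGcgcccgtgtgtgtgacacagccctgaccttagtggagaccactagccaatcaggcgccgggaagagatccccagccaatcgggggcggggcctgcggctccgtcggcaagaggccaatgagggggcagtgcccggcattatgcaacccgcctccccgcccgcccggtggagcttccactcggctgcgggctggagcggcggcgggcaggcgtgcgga
The full palindromic glucocorticoid response element, in which the hexamer and its reverse complement lie 3 bases apart, occurred in 0.00285% of 35116 promoter windows and in none of the members' windows. The hexamer AGAACA occurred in 14.8% of all windows. Among the 12 windows of the 6 members it occurred in 1 each of FKBP5 (chr6:35728578-35728583) and SGK1. The TSC22D3 window shown holds TGACG at chrX:107717118-107717122 and chrX:107717108-107717112, and another 2 of its windows hold it once, at chrX:107775906-107775910 and chrX:107716505-107716509. This core occurred in 24.6% of all windows. CACGTG occurred in 7.26% of all windows and, among those 12, in 1 each of FKBP5 and PER1. These matches describe the letters in a 300 base window and say nothing of binding.

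Between 26.1% and 31.3% of 47323 probes were detected on an array, and arrays of a group correlated with each other at r between 0.966 and 0.991 across probes. All 8 plasma cell markers (SDC1, TNFRSF17, CD38, XBP1, PRDM1, IRF4, JCHAIN, MZB1) were detected on all 16 arrays. Their summed log2 level was 94.0 to 94.7 at 4 h and 95.2 to 96.0 at 0 h in total RNA. Of 12 markers of other cell types, 10 were detected on no array, among them CD3D, CD14, MS4A1 and EPCAM. The red cell gene HBB was detected on all 16 arrays and lay between 6.35 and 9.85 on the log2 scale, lower on the X than on the N array of each of the 8 groups. The endothelial gene PECAM1 was detected on 7 arrays. The summed level of these 12 markers was 61.3 to 63.0 at 4 h and 61.8 to 65.1 at 0 h in total RNA, and their part in the members' values was not tested. In these bulk samples fewer cells of a type and less RNA per cell cannot be told apart.

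The genes TSC22D3, FKBP5, KLF9, SGK1 and FBXO32 were detected on all 16 arrays. All of these but SGK1, that is TSC22D3, FKBP5, KLF9 and FBXO32, were higher on both 4 h arrays than on both 0 h arrays in total RNA and in each pool. A separation of this kind in all 4 kinds of RNA was found in 215 of 10163 genes (2.12%). Within 1 kind, the 5 members with SGK1 were separated in total RNA (21.6% of all genes), pool A (22.9%) and pool B (16.2%), and 4 in pool C (17.6%). No member passed the test in any comparison of 4 h against 0 h (limma, Benjamini-Hochberg adjusted p under 0.05 over 10163 genes), a call that changed with the treatment of the N and X arrays, as given below. The share of genes that passed was 0.108% in total RNA, 0.876% in pool A, 0.0295% in pool B and 0.0689% in pool C. On the log2 scale TSC22D3, FKBP5, KLF9 and FBXO32 differed by 1.91 to 2.68 in total RNA, and SGK1 by 0.51. Those 4 differed by 1.52 to 2.43 in pool A, 1.39 to 2.31 in pool B and 1.73 to 2.55 in pool C. For SGK1 the values were 0.43, 0.33 and 0.11. PER1 passed the detection filter only through 2 arrays at 4 h and is left out here. The medians over all genes were 0.00, 0.04, -0.01 and 0.01 in total RNA and the pools in the order A, B, C.

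**Figure D1:**
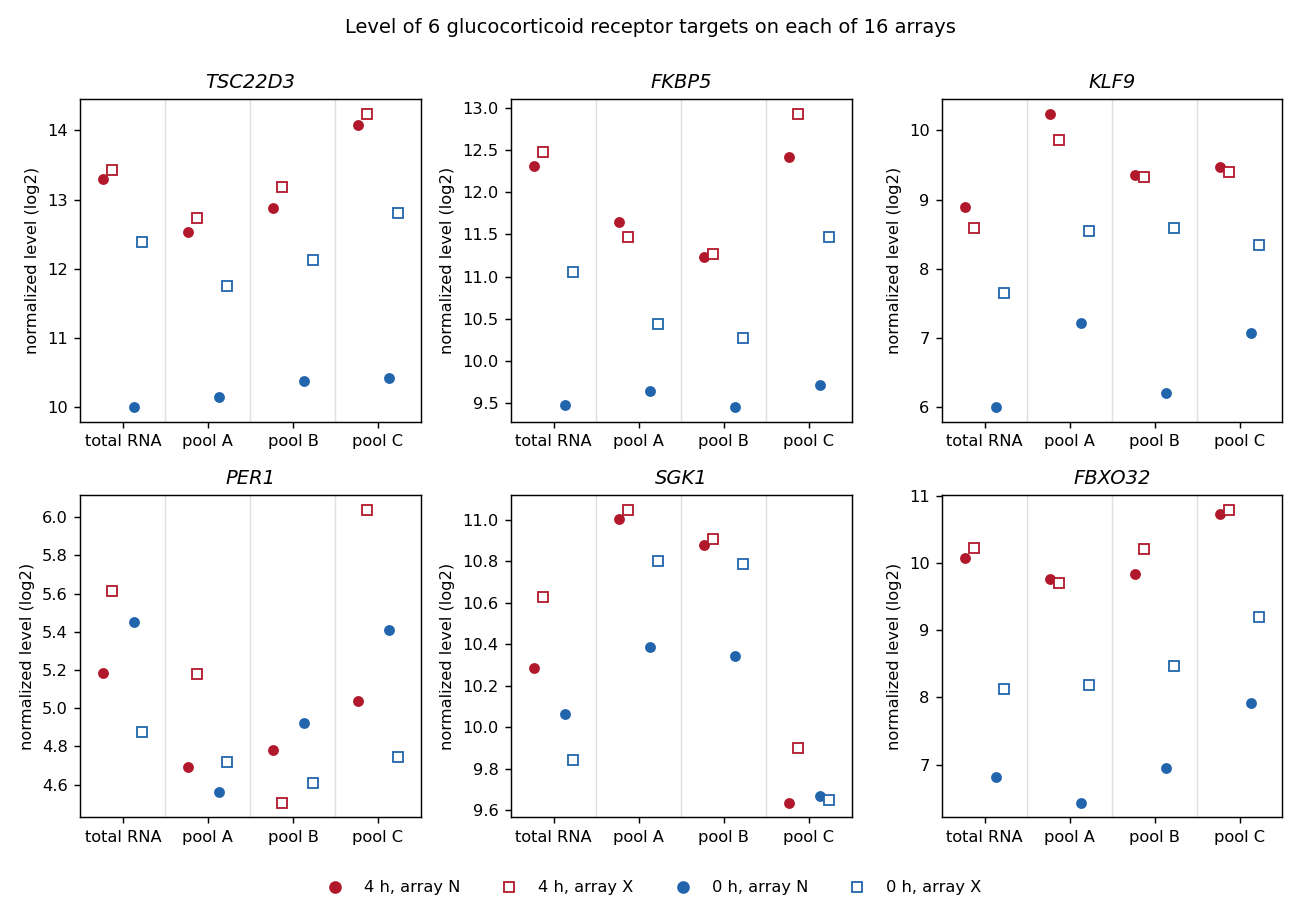
Normalized log2 level (vertical axis) of 6 members on each array, with kinds of RNA along the horizontal axis, 4 h arrays left of 0 h arrays, N arrays as filled circles and X arrays as open squares. For TSC22D3, FKBP5, KLF9 and FBXO32 both 4 h arrays stand above both 0 h arrays in each panel column, and the 0 h X array stands above the 0 h N array.

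TSC22D3 encodes GILZ, a leucine zipper protein that binds and restrains inflammatory transcription factors. In total RNA its chosen probe ILMN_1748124 stood at 13.29 and 13.43 on the N and X arrays at 4 h, against 10.00 and 12.38 on those at 0 h. In pool C it stood at 14.07 and 14.24 at 4 h, against 10.42 and 12.80 at 0 h. The 4 h arrays were close together and above both 0 h arrays, while the 0 h arrays were far apart with X the higher. In pool A the levels were 12.52 and 12.74 at 4 h, against 10.15 and 11.74 at 0 h, and in pool B 12.87 and 13.18 at 4 h, against 10.37 and 12.12 at 0 h. The difference was 2.17 ± 0.82 (SE) in total RNA, 1.68 ± 0.82 in pool A, 1.78 ± 0.82 in pool B and 2.55 ± 0.82 in pool C on the log2 scale (limma, adjusted p = 0.868, 0.413, 0.740 and 0.512, n = 2 arrays against 2). The pool C difference, 5.84-fold, was the highest of all 10163 genes in that pool. As raw intensities the total RNA values were 8989 and 8618 at 4 h, against 1178 and 5826 at 0 h.

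Another 2 probes of TSC22D3 passed the detection filter and both are annotated to a different transcript from the chosen one. ILMN_2376403 was detected on all 16 arrays and differed by 2.53 in total RNA, 1.82 in pool A, 2.14 in pool B and 2.90 in pool C (log2, 4 h minus 0 h). ILMN_2276952 was detected on 11 arrays, namely all 8 arrays at 4 h and the X arrays of the 3 pools at 0 h. In total RNA it was detected on neither 0 h array, which gives at least 1.88-fold. In pool B it read 7.87 and 10.15 at 4 h, against 4.83 (not detected) and 7.80 at 0 h, and the X array at 0 h lay near the N array at 4 h. In pool A it read 6.89 and 8.44 at 4 h, against 4.60 (not detected) and 7.15 at 0 h, so that on this probe the times overlapped in pool A. The other 2 probes of the gene were detected on no array.

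FKBP5 is the co-chaperone that closes a short feedback loop of the pathway, since it is induced by the receptor it holds back. Its levels in total RNA were 12.32 and 12.48 at 4 h, against 9.48 and 11.06 at 0 h. In pool A they were 11.64 and 11.47 at 4 h, against 9.64 and 10.44 at 0 h. No array at 4 h fell into the range of the 0 h arrays of its kind. In pool B they were 11.23 and 11.27 at 4 h, against 9.45 and 10.27 at 0 h, and in pool C 12.42 and 12.93 at 4 h, against 9.71 and 11.47 at 0 h. The differences were 2.13 ± 0.54 (SE) in total RNA, 1.52 ± 0.54 in pool A, 1.39 ± 0.54 in pool B and 2.08 ± 0.54 in pool C (log2, limma adjusted p = 0.281, 0.254, 0.635 and 0.322, n = 2 against 2).

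KLF9 is a zinc finger transcription factor that binds GC-rich promoters and is a direct receptor target in many tissues. It was a dim gene, with 678 and 536 raw intensity units in total RNA on the N and X arrays at 4 h, against 188 and 397 at 0 h. On the log2 scale total RNA read 8.89 and 8.58 at 4 h, against 6.00 and 7.65 at 0 h. Pool A read 10.24 and 9.86 at 4 h, against 7.21 and 8.55 at 0 h. All 4 h arrays were above the 0 h arrays of their kind, and here the N array at 4 h was above the X array in each kind. Pool B read 9.36 and 9.32 at 4 h, against 6.20 and 8.59 at 0 h, and pool C 9.47 and 9.40 at 4 h, against 7.07 and 8.34 at 0 h. The differences were 1.91, 2.17, 1.95 and 1.73 in total RNA and the pools in the order A, B, C, each ± 0.69 (SE, log2, limma adjusted p = 0.803, 0.189, 0.538 and 0.751, n = 2 against 2).

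PER1 is a core repressor of the circadian clock and is induced by glucocorticoids through its promoter. Its single probe was detected on 2 of 16 arrays, the X arrays of total RNA and pool C at 4 h, at 5.61 and 6.04 on the log2 scale. On the other 14 arrays it read between 4.51 and 5.45 and was not well above background, so no fold is given. Its 4 h and 0 h arrays overlapped in every kind of RNA, and PER1 passed in no comparison with all arrays. Neither pool A array at 4 h detected it, so that its differences between pool C and pool A rest on background values.

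ZBTB16 (PLZF), a zinc finger repressor strongly induced by glucocorticoids in other tissues, was not well above background on any array, with 3 probes between 116 and 182 intensity units. CRISPLD2, a secreted protein with a receptor response described in airway muscle cells, had 1 probe between 118 and 172 units and was likewise not detected.

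SGK1 is a kinase of the AKT family that acts on ion channels and on FOXO factors. Its total RNA levels were 10.29 and 10.63 at 4 h, against 10.06 and 9.84 at 0 h. In pool A they were 11.00 and 11.05 at 4 h, against 10.39 and 10.80 at 0 h. Pool B gave 10.88 and 10.91 at 4 h, against 10.34 and 10.79 at 0 h. On this chosen probe, ILMN_1702487, both 4 h arrays lay above both 0 h arrays in total RNA, pool A and pool B. Pool C gave 9.64 and 9.90 at 4 h, against 9.67 and 9.65 at 0 h, so that the N array at 4 h lay below both 0 h arrays. The gene differed by 0.51 ± 0.22 (SE) in total RNA, 0.43 ± 0.22 in pool A, 0.33 ± 0.22 in pool B and 0.11 ± 0.22 in pool C (log2, limma adjusted p = 1.000, 0.446, 0.922 and 1.000, n = 2 against 2). Its other detected probes gave smaller values in total RNA and pool A, at 0.04 and 0.23 for ILMN_3229324 and 0.15 and 0.09 for ILMN_3305938. In pool C they gave 0.30 and 0.34, larger than the chosen probe, and there both read higher on both 4 h arrays than on both 0 h arrays. In pool A the times overlapped on both, and in total RNA on ILMN_3229324.

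FBXO32 (atrogin-1) is the substrate receptor of a ubiquitin ligase that is induced in muscle wasting and is a target of FOXO factors. Total RNA read 10.07 and 10.23 at 4 h, against 6.81 and 8.13 at 0 h. Pool A read 9.77 and 9.70 at 4 h, against 6.43 and 8.18 at 0 h. The lowest 4 h array in any kind of RNA, 9.70 in pool A, was above the highest 0 h array, 9.20 in pool C, a full separation that 24 of 10163 genes (0.236%) had. This held for the chosen probe with quantile normalization. In the deposited normalized values, 1 array of pool B at 4 h read 9.43 and 1 of pool C at 0 h read 10.00. Pool B read 9.83 and 10.21 at 4 h, against 6.96 and 8.47 at 0 h, and pool C 10.73 and 10.79 at 4 h, against 7.92 and 9.20 at 0 h. The differences were 2.68, 2.43, 2.31 and 2.20 in total RNA and the pools in the order A, B, C, each ± 0.60 (SE, log2, limma adjusted p = 0.144, 0.0841, 0.321 and 0.359, n = 2 against 2). In total RNA this 6.40-fold difference was the largest upward difference of all 10163 genes. A second probe for another transcript, ILMN_1652280, differed by 1.81, 2.32, 2.00 and 1.96 in the same order. It overlapped across kinds of RNA, reading 7.46 on the N array of pool A at 4 h and 7.70 on the X array of pool B at 0 h. In pool A it was detected on 1 of the 2 arrays at 0 h, so that the 2.32 rests in part on a background value. With 1 array of pool A at 0 h left out, and the other assumed to vary like the other groups, the pool A difference of the chosen probe was 3.30 without X and 1.55 without N (limma adjusted p = 0.0273 and 0.301).

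**Figure D2:**
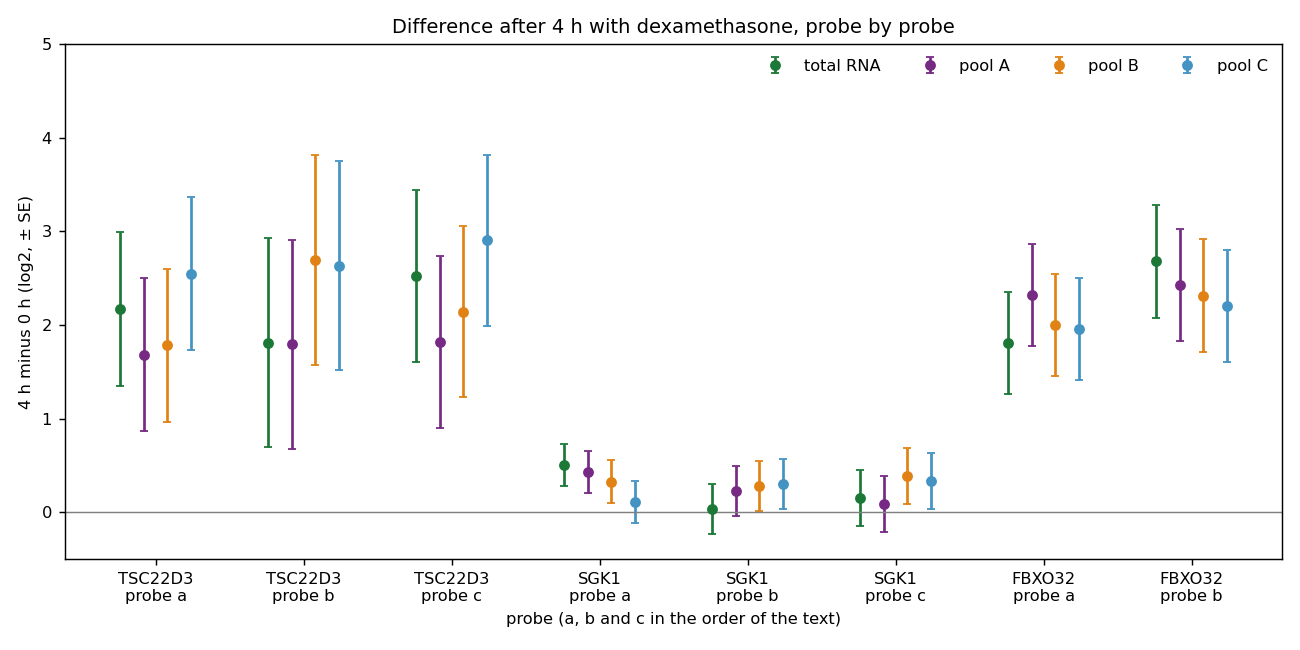
Difference between 4 h and 0 h on the log2 scale with its standard error (vertical axis) for each detected probe of TSC22D3, SGK1 and FBXO32 (horizontal axis), coloured by kind of RNA. TSC22D3 probes a, b and c are ILMN_1748124, ILMN_2276952 and ILMN_2376403, SGK1 probes a, b and c are ILMN_1702487, ILMN_3229324 and ILMN_3305938, and FBXO32 probes a and b are ILMN_1652280 and ILMN_1703955; SGK1 probes reach at most 0.51 and the other probes shown are all higher. TSC22D3 probe b was detected on neither 0 h array in total RNA and on 1 of 2 in each pool, and FBXO32 probe a on 1 of 2 at 0 h in pool A.

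The arrays of each time were then compared by prefix. At 0 h, X minus N averaged over the 4 kinds of RNA was 2.03 for TSC22D3, 1.66 for KLF9, 1.46 for FBXO32 and 1.24 for FKBP5 on the log2 scale. Among 10163 genes, ordered from the highest, these were the 2nd, 4th, 13th and 25th, and the median over all genes was -0.02 with an SD of 0.32. At 4 h, the same differences were 0.21, -0.20, 0.13 and 0.14. SGK1 differed by 0.17 at 4 h and 0.15 at 0 h. A level on X above that on N by more than 0.5 in all 4 kinds of RNA was found in 12 genes at 4 h (0.118%) and 53 genes at 0 h (0.521%).

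The difference between times was then taken within each prefix. On N arrays, 4 h minus 0 h averaged 2.96 for TSC22D3, 2.33 for FKBP5, 2.87 for KLF9 and 3.07 for FBXO32 over the 4 kinds of RNA. On X arrays it was 1.14, 1.23, 1.01 and 1.74. It was above 0 in each kind of RNA for each of these genes and both prefixes. SGK1 gave 0.34 on N arrays and 0.35 on X arrays. With the arrays first averaged within time and prefix, the mean response was 2.41 ± 0.43 (SE) for FBXO32, 2.05 ± 0.58 for TSC22D3, 1.94 ± 0.48 for KLF9 and 1.78 ± 0.37 for FKBP5 (log2, limma adjusted p = 0.209, 0.425, 0.350 and 0.242, n = 2 averaged values against 2). No gene passed in this fit, where 768 of 10163 (7.56%) had an unadjusted p under 0.05. The calls turned on the 4 N or 4 X arrays at 0 h. Without the X arrays of 0 h, TSC22D3, KLF9 and FBXO32 passed in total RNA and every pool and FKBP5 in all but pool B, with total RNA differences of 3.36, 2.74, 3.34 and 2.92 (limma adjusted p = 0.000697, 0.00307, 0.000697 and 0.00307). Without the N arrays of 0 h, FBXO32 passed in pool A at 1.55 (adjusted p = 0.0372) and KLF9 at an adjusted p of 0.0499, and no member did in total RNA, pool B or pool C. Either way the untreated side is 1 array, assumed to vary like the other groups. In these fits 26, 94, 14 and 20 of 10163 genes passed in total RNA and the pools in the order A, B, C without the X arrays, and 51 in pool A without the N arrays. With all arrays and the prefix as a replicate block, FBXO32 and FKBP5 passed in total RNA (limma adjusted p = 0.0150 and 0.0371), FBXO32 in pool A (0.0136), and TSC22D3, FKBP5, KLF9 and FBXO32 in the mean of the 4 kinds, where 50, 213 and 229 of 10163 genes passed. The fit of the mean of the 4 kinds then has 1 residual degree of freedom, so that its calls lean on the spread of other genes. What the prefix marks was not tested.

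**Figure D3:**
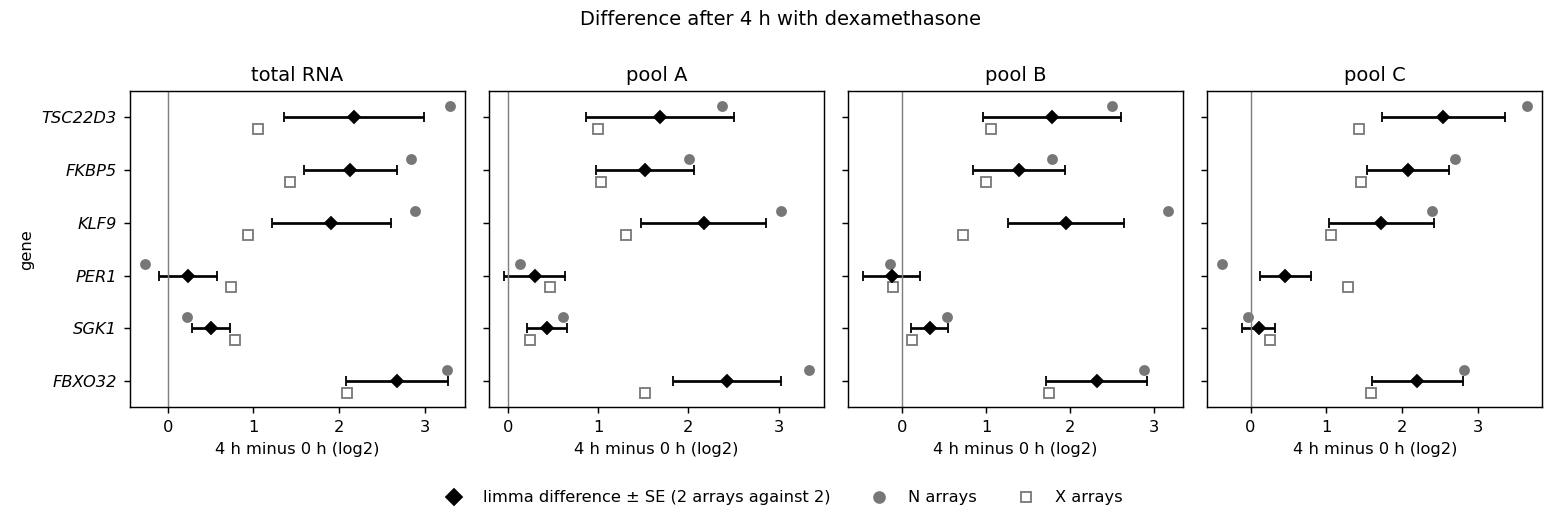
Difference between 4 h and 0 h on the log2 scale (horizontal axis) for 6 members, in 1 panel per kind of RNA. Diamonds with bars give the limma difference and its standard error, circles the N arrays and squares the X arrays; for TSC22D3, FKBP5, KLF9 and FBXO32 the circle lies to the right of the square in all 4 panels.

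**Figure D4:**
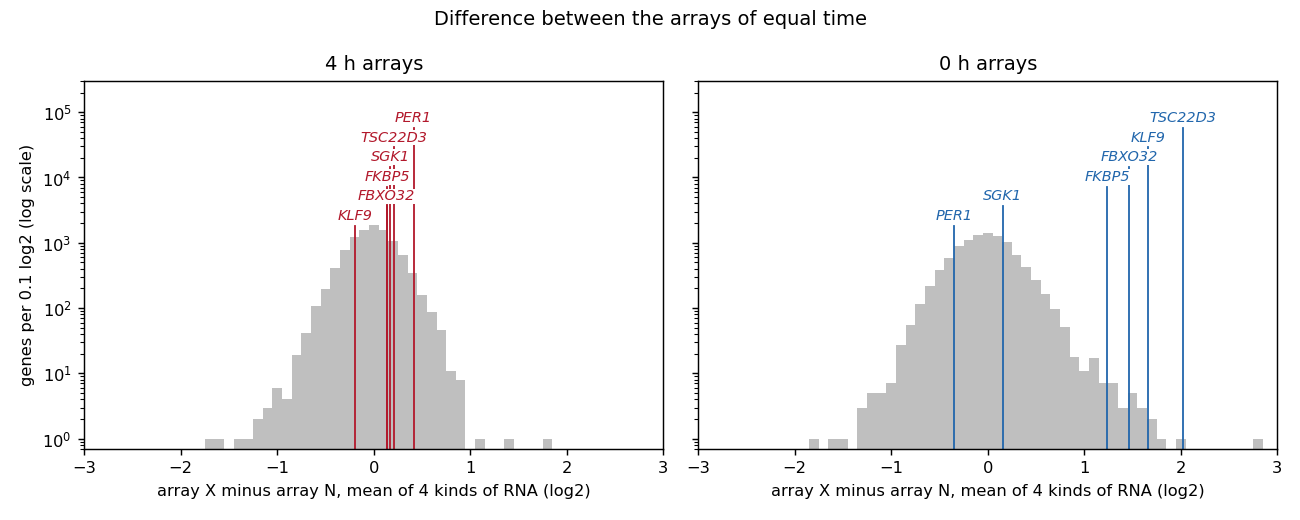
Number of genes (vertical axis, log scale) by the difference between the X and the N arrays averaged over 4 kinds of RNA (horizontal axis, log2), at 4 h on the left and 0 h on the right, with members marked by lines. At 0 h TSC22D3, KLF9, FBXO32 and FKBP5 stand at 2.03, 1.66, 1.46 and 1.24 in the right tail, and at 4 h all 4 lie between -0.20 and 0.21.

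The response in the pools was set against that in total RNA. No member passed the test of the response in the mean of the pools minus that in total RNA, which 0 of 10163 genes (0%) passed in limma and for which 143 genes had an unadjusted p under 0.05. The difference was -0.17 for TSC22D3 (confidence interval at level 0.95, -2.20 to 1.86), -0.47 for FKBP5 (-1.82 to 0.89), 0.04 for KLF9 (-1.68 to 1.76), -0.22 for SGK1 (-0.76 to 0.33) and -0.36 for FBXO32 (-1.85 to 1.12). Between pool C and pool A the response differed by 0.86 for TSC22D3 (-1.63 to 3.35), 0.56 for FKBP5 (-1.09 to 2.22), -0.44 for KLF9 (-2.55 to 1.67) and -0.22 for FBXO32 (-2.05 to 1.60). Again 0 genes (0%) passed and 585 had an unadjusted p under 0.05. Each of these intervals holds values of either sign.

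Levels differed between pools as well as between times. SGK1 was the only member to pass in pool C against pool A, at -1.26 ± 0.22 at 4 h and -0.94 ± 0.22 at 0 h (SE, log2, limma adjusted p = 0.000305 and 0.00266), comparisons that 56.2% and 55.5% of genes passed. This direction rested on the scaling: with median scaling in place of quantile normalization, SGK1 stood at -0.03 at 4 h and 0.51 at 0 h (limma adjusted p = 0.918 and 0.0857). The median of all genes in this comparison was 0.99 at 4 h and 1.16 at 0 h with median scaling, where quantile normalization gave 0.20 and 0.26. In the deposited normalized table it stood at -0.14 at 0 h (limma adjusted p = 0.666), and without the X arrays of 0 h at -0.72 (adjusted p = 0.0719). All 3 SGK1 probes were lower in pool C in the quantile fit. FBXO32, TSC22D3 and FKBP5 stood 1.03, 1.52 and 1.12 higher in pool C than in pool A at 4 h, and 1.25, 0.66 and 0.55 higher at 0 h, and none passed. The 0 h differences turned on single arrays, and calls in this comparison also changed with the scaling, as given below. Over all alternatives at 0 h FBXO32 lay between 0.38 and 2.43 and FKBP5 between -0.33 and 1.96. Leaving out 1 of the 4 arrays at a time, FBXO32 lay between 0.38 and 2.13, FKBP5 between -0.33 and 1.43 and TSC22D3 between -0.53 and 1.85. FBXO32 passed without the X array of pool A (2.13, limma adjusted p = 0.0120) and without the N array of pool C (1.90, adjusted p = 0.0411), and fell short without the N array of pool A (0.38, adjusted p = 0.638) or the X array of pool C (0.61, adjusted p = 0.508). FKBP5 passed without the N array of pool C (1.43, limma adjusted p = 0.0459) and stood at -0.33 without its X array (adjusted p = 0.655), where TSC22D3 stood at -0.53 (adjusted p = 0.651). In each case 1 side is a single array, assumed to vary like the other groups.

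Against total RNA no member passed at 4 h (33.2% of genes did) or at 0 h (35% did). TSC22D3 was 0.78 and 0.81 above total RNA in pool C on the N and X arrays at 4 h, and 0.42 and 0.42 above it at 0 h. In pool A it was 0.77 and 0.69 below it at 4 h. FKBP5 was 1.08 and 1.21 below total RNA in pool B at 4 h and 0.03 and 0.79 below it at 0 h. KLF9 was above total RNA in all 3 pools at both times with quantile normalization, by 1.31 in pool A at 4 h and 1.05 at 0 h. In the deposited normalized values pool B overlapped total RNA, at 9.03 and 9.46 against 9.40 and 9.16 at 4 h.

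**Figure D5:**
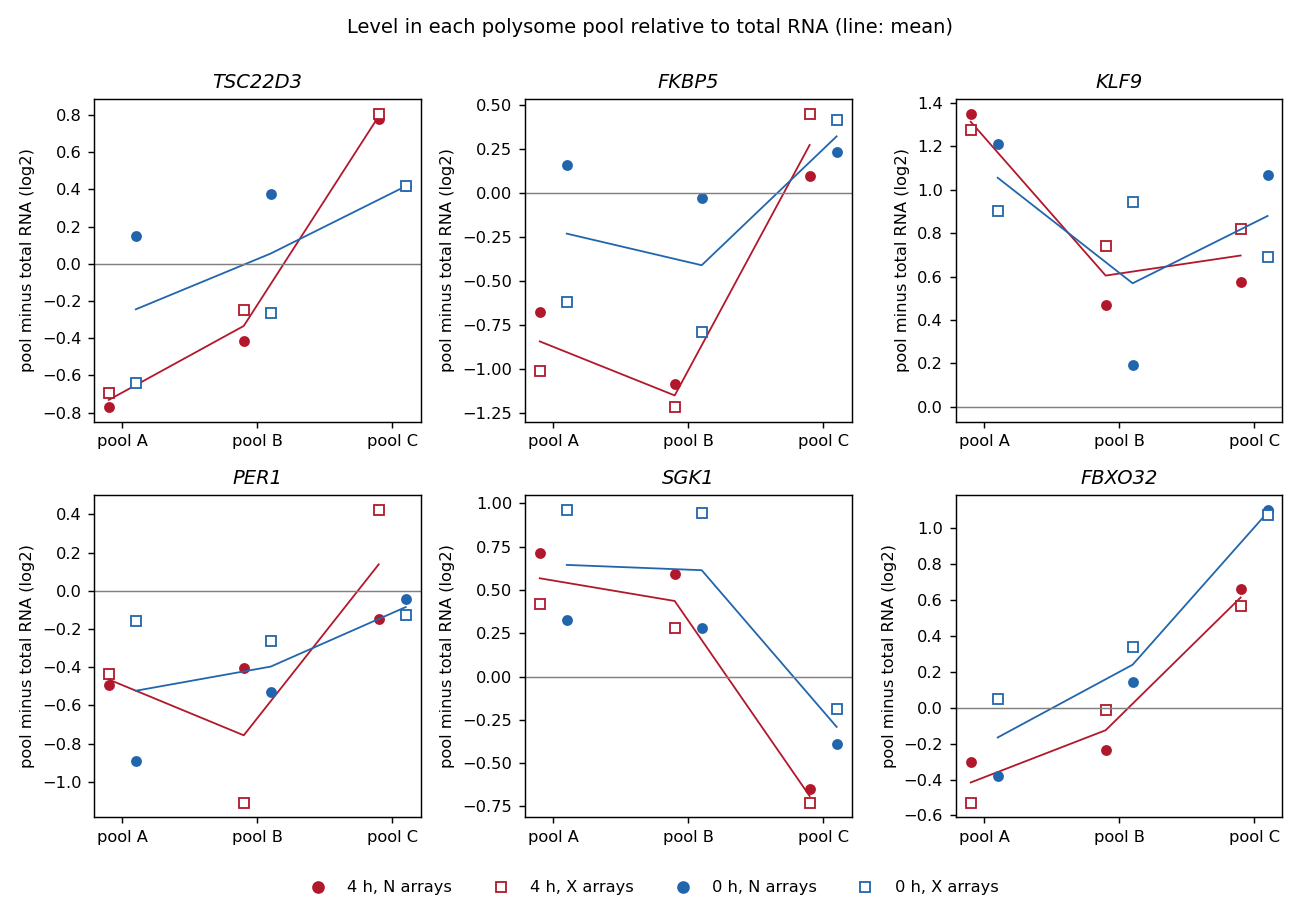
Level in pools A, B and C minus the total RNA level of the same time and prefix (vertical axis, log2) for 6 members, red for 4 h and blue for 0 h, circles for N and squares for X arrays, lines for the mean. In these quantile normalized values KLF9 lies above 0 throughout, and SGK1 lies below 0 in pool C and above it in pools A and B.

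Ordered by mean quantile normalized level, the 4 groups at 4 h of TSC22D3, KLF9, FBXO32 and FKBP5 came first and the 4 groups at 0 h last. TSC22D3 ran from 14.16 in pool C at 4 h to 10.95 in pool A at 0 h. Its neighbours among the 0 h groups overlapped in range, and so did pool A at 4 h with pool C at 0 h. For KLF9 pool A led at 4 h (10.05), and neighbours in the order down to pool A at 0 h did not overlap. For FKBP5 pool C led at 4 h (12.67), and its range overlapped that of total RNA at 4 h. Pool B of FKBP5 at 4 h overlapped its pool C at 0 h. Raw intensity gave FKBP5 another order, with a mean of 3062 in pool C at 0 h, against 2446 and 2273 in pools A and B at 4 h. For SGK1 the order was pool A at 4 h (11.03), pool B at 4 h (10.89), pool A at 0 h (10.60), pool B at 0 h (10.56), total RNA at 4 h and at 0 h, and pool C at 4 h and at 0 h (9.66). Its pools A and B at 4 h overlapped neither each other nor pool A at 0 h, while pools A and B at 0 h overlapped.

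Other genes with a known receptor response were read from a list of 45, of which 35 were tested. The list was chosen with earlier results of these data known, so its counts are a description. TXNIP, an inhibitor of thioredoxin, was higher at 4 h in pool C, at 13.71 and 13.65, against 12.18 and 12.37 at 0 h (difference 1.40 log2, limma adjusted p = 0.0133, n = 2 against 2). SESN1, a stress-response gene, was higher at 4 h in pool A, at 9.52 and 9.44, against 8.58 and 8.32 at 0 h (1.03 log2, limma adjusted p = 0.0253). No other gene of the list passed in a comparison of 4 h against 0 h, and CXCR4 and DDIT4 differed by 2.23 and 2.40 in total RNA. In 10 of the 35 genes both 4 h arrays lay above both 0 h arrays in all 4 kinds of RNA, as in 2.12% of all genes. The list's median difference was 0.47 in total RNA, 0.46 in pool A, 0.48 in pool B and 0.32 in pool C.

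Genes around SGK1 and FBXO32 were read from a list of 16, of which 12 were tested. FOXO1, a FOXO transcription factor, was higher in pool A at 9.33 and 8.63 at 4 h, against 7.26 and 7.38 at 0 h (1.66 log2, limma adjusted p = 0.0278, n = 2 against 2). It stood 1.38, 0.90 and 1.08 higher in total RNA and pools B and C, which did not pass. NDRG1, whose protein is phosphorylated by SGK1, was lower in pool A at 8.36 and 8.24 at 4 h, against 9.75 and 9.18 at 0 h (-1.16 log2, limma adjusted p = 0.0402, n = 2 against 2). The receptor and its chaperones (14 tested of 18), the clock genes (12 of 17) and relatives of the members (9 of 16) were read likewise. They held no gene that passed in a comparison of 4 h against 0 h. The receptor gene NR3C1 differed by 0.31 in total RNA, -0.17 in pool A, 0.10 in pool B and 0.22 in pool C, and PER2 by -0.40, -0.48, -0.65 and -0.48.

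Patterns over the 16 arrays were compared by Pearson's r, as a description, since arrays share times, kinds of RNA and prefixes. TSC22D3 was most alike to DDIT4 (r = 0.968), FBXO32 (0.956) and FKBP5 (0.956). FBXO32 was most alike to FAR2 (0.970), which also led for the mean of the 6 members (0.969). KLF9 was nearest to CXCR4 (0.955). SGK1 was nearest to LINC00339 (0.969) and SAT1 (0.963), and its r with TSC22D3 was 0.05. PER1 was nearest to LCP2 (0.800), but it was detected on only 2 of 16 arrays. This r rests mostly on background values, which also enter the mean of the 6 members.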

How the data were processed

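Per the file headers, the deposited table of all 47323 probes holds non-normalized intensity values and a detection p-value for each of 16 arrays. Per the labels, RNA was amplified and biotin-labelled for Illumina arrays. The authors' deposited log2 value table was used as an alternative, and its normalization is not stated in the labels or headers. Background was corrected with nec in limma 3.58.1 (R 4.3.3), using the detection p-values and an offset of 16. Values were put on the log2 scale and quantile normalized. Probes detected (p under 0.01) on at least 2 arrays were kept, 17269 in all. Each of 10163 genes was taken at its probe with the highest mean. One limma model with 8 group means was fitted across all genes, with Benjamini-Hochberg adjusted p under 0.05 as threshold. The mean response over kinds of RNA was fitted on arrays averaged within time and prefix. The script was tested on simulated data. All members are named. From each gene list at most 4 genes are named, those past the threshold first, then by size of difference. The members and lists were chosen with earlier results of these data known. Alternatives covered scaling, background, filter, probes, blocks, the deposited table and leaving out arrays. The number of arrays limits the precision.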

Additional observations from a re-analysis of the deposited data

How the results depend on the processing

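All member counts here are of members that passed at an adjusted p under 0.05 in limma, with counts over all 10163 genes in brackets where given. Member counts in pool C against pool A and in the pools against total RNA stand beside the large counts over all genes given at the end. With all arrays and quantile normalization that was 0 in each comparison of 4 h against 0 h and 1 (SGK1) in pool C against pool A at each time. Median scaling gave 2 at 4 h and 3 at 0 h in pool C against pool A (7254 and 7461 of all genes), with SGK1 at 0.51 at 0 h. No background correction gave 1 in total RNA (37 of all genes) and 2 in pool C against pool A at 4 h (5573). An offset of 50 gave 1 in total RNA (34). The deposited value table gave 2 at 4 h and 0 at 0 h in pool C against pool A (5273 and 5579 of all genes). With the prefix as a replicate block, 2 passed in total RNA (FBXO32 and FKBP5, limma adjusted p = 0.0150 and 0.0371) and 1 in pool A. The mean of the 4 kinds gave 4 (1 residual degree of freedom), and pool C against pool A gave 4 at 4 h and 2 at 0 h. Over all genes 50, 213, 229, 6259 and 6146 passed, in this order. With the labels' number as a replicate block in the deposited value table, 2 passed in total RNA, 5 in pool A, 1 in pool B and 2 in pool C (60, 580, 20 and 44 of all genes). The mean of the 4 kinds gave 5 (1 residual degree of freedom, 557 of all genes). Pool C against pool A gave 3 at either time (5936 of all genes at 4 h and 6152 at 0 h). The labels' numbers are not stated to pair arrays: across times, arrays of 1 prefix correlated in their deviations at r between 0.12 and 0.35, and arrays of 1 number at r between 0.12 and 0.43. A random block of time and prefix gave 1 in total RNA, 1 in pool A, and 3 at 4 h and 2 at 0 h in pool C against pool A. Over all genes 26, 100, 6156 and 6057 passed there, in this order. The mean of the 4 responses in the model with 8 group means gave 4 (374 of all genes). That fit counts the kinds of RNA as separate replicates, although those of 1 time and prefix may come from 1 culture.

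Without the 4 N or the 4 X arrays of 0 h, each 0 h group is 1 array. With all arrays, 56.2% of genes passed in pool C against pool A at 4 h and 55.5% at 0 h. In the pools against total RNA, 33.2% passed at 4 h and 35% at 0 h. For the fits without the N or X arrays of 0 h, the calls of 4 h against 0 h in total RNA and the pools are given above. Their member counts in other comparisons are left out. Leaving out 1 array at a time gave 0 to 1 in pool A, and 1 to 2 at 4 h and 1 to 3 at 0 h in pool C against pool A. The second at 4 h was PER1, without the N array of pool C, against 2 pool A arrays that did not detect it. Of 1266 alternatives of member values, 95 passed where the reported fit did not, 4 no longer passed, and 1 was reversed (SGK1, above); in 94 more the sign changed with no call. The cause was not tested.

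Over the alternatives that tested 10163 genes, the counts over all genes ranged from 0 to 60 in total RNA (11 reported), 0 to 580 in pool A (89), 0 to 20 in pool B (3), 0 to 48 in pool C (7) and 0 to 557 in the mean of the 4 kinds (0). They ranged from 0 to 8 for the response in pool C minus pool A (0), 695 to 4148 at 4 h (3378) and 1432 to 4332 at 0 h (3555) in the pools against total RNA, and 3373 to 7254 at 4 h (5716) and 4094 to 7461 at 0 h (5645) in pool C against pool A. With all 17269 kept probes tested, 5258 and 5434 probes passed in the pools against total RNA at 4 h and 0 h, and 9560 and 9342 in pool C against pool A.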
